A study of Mus musculus with 7 samples.

Results

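Lung dendritic cells respond to an inhaled allergen with many genes at once, and Irf3 is only one of the regulators in reach of that response. The genes described here are those that were higher after house dust mite extract in wild type cells and stood at a similar level after the extract in cells without Irf3. They were chosen by measured values. A gene was a member when its mean log2 level over the 7 arrays was at least 7.5, when treated wild type exceeded untreated wild type by at least 0.6 on the log2 scale, and when treated Irf3-deficient differed from treated wild type by less than 0.25 in either direction. Of 19938 genes with 1 probeset kept for each, 11598 passed the floor, 856 of these passed the floor and the limit on induction, and 102 met all conditions. The other mite-induced genes were 735 that were lower by 0.25 or more without Irf3 and 19 that were higher by 0.25 or more. Members thus made up 11.9% of the 856 mite-induced genes and the lower genes 85.9%.

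RNA from sorted lung CD11b+ conventional dendritic cells (cDC2s) was hybridised to Affymetrix Mouse Gene 1.0 ST arrays, each array holding 1 pool of cells from 10 female mice on a C57Bl/6 background. The groups were 3 arrays from Irf3-deficient mice given 100 µg of house dust mite extract (HDM), 2 from wild type mice given the same extract and 2 from wild type mice given PBS, all taken 12 hours after treatment. "Treated" refers to the extract and "untreated" to PBS throughout. All pools had been sorted by the same gate, CD11c+ MHC-II+ CD11b+ Ly6C- CD64-. PBS-treated Irf3-deficient mice were not analysed here, so an induction within that genotype cannot be given. "Kept" means a treated level close to that of treated wild type, and the untreated baseline is always that of wild type.

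IRF3 is a transcription factor that waits in the cytoplasm and enters the nucleus after certain innate sensors are engaged, where it switches on interferon beta and related genes. Secreted interferon then acts back on the cells through its receptor and the STAT proteins and raises the interferon-stimulated genes. The same sensors also feed NF-kB and the MAP kinases, which do not need IRF3. Allergen-exposed dendritic cells further receive signals from the epithelium and change their lipid metabolism as they mature and leave for the lymph node.

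In these arrays Irf3 followed the labels. Its log2 level was 8.26, 8.13 and 8.30 in treated Irf3-deficient arrays, 9.59 and 9.57 in treated wild type, against 9.48 and 9.56 in untreated wild type. The array medians lay between 7.60 and 7.69, and the lowest correlation between arrays of 1 group was 0.995 over all genes. Of 18 markers of cDC2s, 17 had an overall mean at or above the floor. Markers of monocytes and interstitial macrophages were also above it in all 20 cases. The gate should leave these cells out, but the list shares Ccr2 with that of cDC2s. Passing the floor does not mark a cell type, since only 1 of 25 markers of lung epithelium, endothelium and stroma lay below it. The summed linear level of the monocyte and macrophage markers ranged from 67043 to 72959 in treated Irf3-deficient arrays, from 38767 to 47799 in treated wild type and from 80334 to 92387 in untreated wild type. In such bulk samples, a smaller share of cells of 1 type and less RNA per cell cannot be told apart.

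The members' inductions were modest. The difference between treated and untreated wild type ranged from 0.60 to 1.90 on the log2 scale with a median of 0.76, a 1.69-fold difference. Among the 735 genes that were lower without Irf3 the median was 1.07. Only 21 members reached a log2 difference of 1. Treated Irf3-deficient cells differed from treated wild type by a median of -0.14, and 83 members lay below 0 against 19 above it. Set against the untreated wild type level, treated Irf3-deficient cells held between 62.2% and 135% of the wild type induction, with a median of 84.4%. In 32 members this share was 90% or more, and in 22 it was under 75%. The sizes of these values were fixed or bounded by the rule, and they describe the members without testing them. The sign of the genotype difference was not set by the rule. Its median was 0.00 over all genes, and the other mite-induced genes were 735 lower and 19 higher. Both differences use the same treated wild type arrays, and the source of the lean below 0 was not tested.

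**Figure D1:**
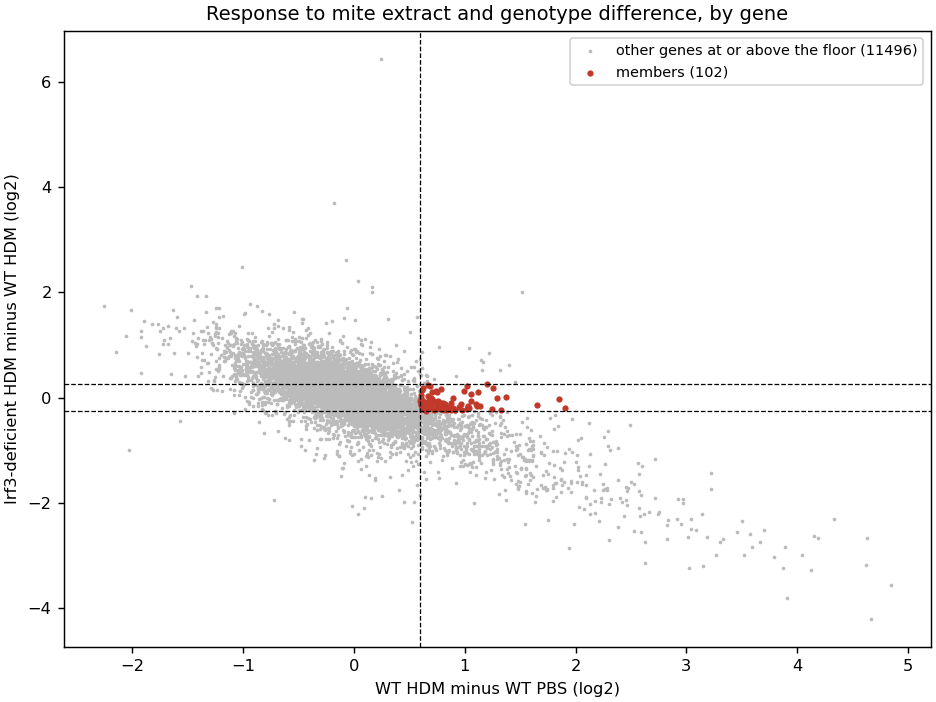
Each point is 1 gene at or above the brightness floor, with treated minus untreated wild type on the x axis and treated Irf3-deficient minus treated wild type on the y axis, both in log2 units, and dashed lines at the limits of the rule. The 102 members (red) fill a narrow band at the left end of the induced range, while genes with the largest inductions lie far below it; both axes use the treated wild type arrays.

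The limit of 0.25 is close to the error of the measurement. The 95% interval of the difference between the treated genotypes, from the limma fit over all genes, had a median half-width of 0.258 among members. It lay within 0.5 either way for 86 of the 102 members and within 0.25 either way for 3. For most members these arrays therefore cannot place the difference inside the rule's own limit. In 6 members the interval left out 0, above it for Idi1 and Aldh1a2 and below it for Cblb, Tgm2, Prr14 and Ino80d. In the same fit 99 of the 102 members passed an adjusted p of 0.05 for the wild type response upward, which 8.35% of all genes did, and 0 of 102 passed for the genotype difference, which 19.7% of all genes did; the rule used both contrasts, so these counts follow from it. Both treated wild type arrays lay above both untreated arrays in 102 of 102 members, against 28.5% of all genes. The treated genotypes' arrays overlapped in 74 of 102 members, against 56.3% of all genes. All 3 Irf3-deficient arrays lay above both untreated arrays in 101 members, against 22% of all genes, the exception being the predicted gene A530064D06Rik. Members were chosen on these same arrays, so the counts of separated and overlapping arrays are also largely set by the rule and test nothing.

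Promoter sequences are shown for 3 members that belong to cytokine and NF-kB control. Only windows that hold a kappaB-like match were shown, and whether NF-kB acts on these genes was not tested. They come from RefSeq (GRCm38.p6) and run from 250 bases before to 50 bases after an annotated gene start, 5′ to 3′ along the gene. Capitals mark matches to a kappaB-like motif, GGNNNTTCC on either strand. The Il1rn window lies at chr2:24336610-24336909 on the + strand, the Csf1 window at chr3:107760420-107760719 on the - strand and the Bcl3 window at chr7:19822706-19823005 on the - strand.
Il1rn: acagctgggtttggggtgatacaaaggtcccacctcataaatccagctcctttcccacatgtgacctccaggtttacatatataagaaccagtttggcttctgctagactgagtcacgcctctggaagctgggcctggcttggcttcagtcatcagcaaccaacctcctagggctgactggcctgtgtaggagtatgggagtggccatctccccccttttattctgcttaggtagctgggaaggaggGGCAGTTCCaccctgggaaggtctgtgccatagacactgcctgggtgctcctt
Csf1: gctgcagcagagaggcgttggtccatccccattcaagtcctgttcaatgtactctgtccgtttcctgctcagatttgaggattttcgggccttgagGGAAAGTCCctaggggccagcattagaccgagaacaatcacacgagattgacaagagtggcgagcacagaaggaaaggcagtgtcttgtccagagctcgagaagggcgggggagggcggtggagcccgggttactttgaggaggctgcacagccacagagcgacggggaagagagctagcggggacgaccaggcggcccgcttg
Bcl3: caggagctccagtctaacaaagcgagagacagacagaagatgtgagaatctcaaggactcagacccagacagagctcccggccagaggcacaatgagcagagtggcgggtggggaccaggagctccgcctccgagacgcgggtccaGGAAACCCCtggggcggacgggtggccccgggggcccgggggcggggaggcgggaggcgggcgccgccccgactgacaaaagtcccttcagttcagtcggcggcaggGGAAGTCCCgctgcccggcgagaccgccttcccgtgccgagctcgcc

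In the Csf1 window the match begins 154 bases upstream of the start. Bcl3 has 2 matches, of which 1 begins 104 bases upstream. Windows were found for 80 of the 102 members, 107 windows in all. The kappaB-like letters occurred in 29 of them (27.1%), against 21.7% of the windows of mite-induced genes that were lower without Irf3, 21.5% of those of genes above the floor and 18.5% of all 32851 windows in the table. An interferon response element-like motif, GAAANNGAA, occurred in 8.41% of the members' windows, against 13.9% of those of the induced genes lower without Irf3, 7.22% above the floor and 8.56% of all windows. A STAT-type motif, TTCNNNGAA, was found in 2.80% of the members' windows and in 6.73%, 6.67% and 8.30% of the others in that order. The AP-1 letters TGANTCA stood in 5.61% of the members' windows against 5.25% above the floor, and the cyclic AMP element TGACGTCA in 3.74% against 2.93%. An E-box spelled CACGTG stood in 4.67% against 9.99%, and a TATA box spelled TATAAA in 7.48% against 7.17%. No kappaB-like match of a member overlapped another of these motifs. Windows of 1 gene can overlap, and a match describes letters, not binding.

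The largest inductions among the members belonged to Serpinb9b, a serine protease inhibitor of the granzyme-inhibiting branch, and Vcan, the gene of the matrix proteoglycan versican. Serpinb9b had log2 levels of 10.70, 10.52 and 10.81 in treated Irf3-deficient arrays, 10.84 and 10.89 in treated wild type, against 8.86 and 9.07 in untreated wild type. All treated arrays of both genotypes were close together and far from the untreated ones, a 3.74-fold wild type difference of which 90.1% was kept. Serpinb9b belongs to a family of near-identical genes that may share probes. Vcan stood at 9.23, 8.82 and 9.18 in treated Irf3-deficient arrays, at 8.65 and 9.55 in treated wild type, against 7.25 and 7.23 in untreated wild type. Its treated wild type arrays bracketed all 3 Irf3-deficient values, and they disagreed by more than any other member's. Vcan is also on the marker list of monocytes and interstitial macrophages, of which 17 of 20 fell after the extract in wild type and 3 rose; its induction therefore runs against most of that list.

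Dusp14, a phosphatase that acts on MAP kinases, measured 11.27, 11.53 and 11.73 in treated Irf3-deficient arrays, 11.71 and 11.57 in treated wild type, against 9.73 and 10.26 in untreated wild type. The treated groups overlapped, and 92.0% of a 3.13-fold wild type difference was kept. Alpk2, an alpha-type protein kinase gene, stood at 10.04, 9.66 and 9.89 in treated Irf3-deficient arrays, 9.76 and 9.95 in treated wild type, against 8.24 and 8.72 in untreated wild type. Its treated groups differed by 0.01 (95% CI -0.33 to 0.34). Serpina3n, a secreted protease inhibitor, had 10.51, 10.13 and 9.80 in treated Irf3-deficient arrays, against 9.83 and 10.26 in treated wild type, against 8.98 and 8.86 in untreated wild type. Slco3a1, an organic anion transporter, had 10.64, 10.44 and 10.64 in treated Irf3-deficient arrays, 10.47 and 11.01 in treated wild type, against 9.61 and 9.64 in untreated wild type. For both, the Irf3-deficient values lay between or beside those of the treated wild type arrays.

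Secreted regulators of inflammation among the members were Il1rn and Csf1. Il1rn encodes the antagonist that blocks the interleukin 1 receptor. Its levels were 12.13, 12.24 and 12.36 in treated Irf3-deficient arrays, 12.10 and 12.38 in treated wild type, against 10.66 and 11.24 in untreated wild type. The treated means coincided (difference 0.00, 95% CI -0.32 to 0.32) at 2.45 times the untreated wild type level. Csf1, a growth factor for macrophages, had 9.13, 8.95 and 9.14 in treated Irf3-deficient arrays, 9.11 and 9.35 in treated wild type, against 7.98 and 8.21 in untreated wild type, with 86.1% of the induction kept. Of the 51 measured cytokines, chemokines and TNF family ligands, 22 rose and 7 fell in wild type after the extract, and 12 were higher and 19 lower in treated Irf3-deficient than in treated wild type. Over all genes 8.35% rose and 9.23% fell in wild type, and 10.7% were higher and 9% lower without Irf3. These shares are the background for such counts in every list. Among the cytokines and ligands 17 genes were mite-induced by the rule's limits, 14 of them lower without Irf3, close to the 85.9% of all mite-induced genes. Il15, a cytokine that supports lymphocytes, had the lowest genotype difference among those that rose, a wild type log2 difference of 2.30 and a genotype difference of -2.71 (limma adjusted p = 1.12e-07).

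Receptors and sensors contributed Il7r and Ly96. Il7r, the interleukin 7 receptor chain that is also part of the receptor for the epithelial cytokine TSLP, had 12.11, 12.20 and 12.34 in treated Irf3-deficient arrays, 12.56 and 12.28 in treated wild type, against 11.45 and 11.61 in untreated wild type. All 3 Irf3-deficient values exceeded both untreated ones and 1 exceeded a treated wild type value. Ly96 encodes MD-2, the partner of TLR4 that binds endotoxin. Its levels were 12.21, 11.72 and 11.48 in treated Irf3-deficient arrays, 11.59 and 12.39 in treated wild type, against 11.38 and 10.90 in untreated wild type. The arrays within each group were far apart and the interval of the genotype difference ran from -0.70 to 0.33, so the level without Irf3 is known only roughly. Among 54 measured cytokine receptors 16 rose and 15 fell in wild type, and 12 of 14 mite-induced ones were lower without Irf3. Of 44 sensors, adaptors and kinases 13 rose and 13 fell, and 10 of 11 mite-induced ones were lower without Irf3. Both counts are near the 85.9% over all mite-induced genes.

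NF-kB and its feedback were represented by Bcl3 and Tank. Bcl3, an atypical IkB protein that works in the nucleus with NF-kB subunits, had 12.21, 12.07 and 12.14 in treated Irf3-deficient arrays, 12.16 and 12.61 in treated wild type, against 11.43 and 11.71 in untreated wild type. With a genotype difference of -0.24 it sat just inside the limit. Tank, an adaptor of TRAF proteins and the kinase TBK1, had 12.28, 12.28 and 12.27 in treated Irf3-deficient arrays, 12.42 and 12.42 in treated wild type, against 11.79 and 11.75 in untreated wild type. Its replicates were so close that the treated genotypes did not overlap although they differed by only -0.14. In the whole list of 31 NF-kB subunits, inhibitors and targets, 12 rose and 0 fell in wild type, and between the treated genotypes 2 were higher and 8 lower. The count of 2 became 1 under 8 of 15 alternatives, among them the sets without Irf3-deficient replicate 2 or 3, treated wild type replicate 1 or either untreated array. Of the 9 genes of this list that were mite-induced by the rule's limits 7 were lower without Irf3. These are small numbers beside the 85.9% over all mite-induced genes. Relb, an NF-kB subunit of mature dendritic cells, rose by 1.08 and was lower by -0.97 without Irf3 (limma adjusted p = 7.83e-05). Birc2 rose by 1.38 and differed by -0.73 (adjusted p = 0.000363 in the limma fit).

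Sterol synthesis held the most members of any list beside the transcription factors. They were 4 of its 9 mite-induced genes, small numbers beside the 11.9% over all mite-induced genes, and the other 5 were lower without Irf3. Idi1, which makes the isoprenoid unit dimethylallyl diphosphate, had 12.63, 12.61 and 12.54 in treated Irf3-deficient arrays, 12.37 and 12.32 in treated wild type, against 11.11 and 11.18 in untreated wild type. Every Irf3-deficient value lay above both treated wild type values, and 121% of the induction was present. A second probeset of Idi1 gave a genotype difference of 0.34, outside the limit, so its membership rests on the kept probeset. That one was only slightly brighter, with an overall mean of 12.11 against 12.06. Whether either probeset matches near-identical copies was not analysed here. Cyp51, the lanosterol demethylase, had 11.01, 10.79 and 10.65 in treated Irf3-deficient arrays, 10.66 and 10.72 in treated wild type, against 10.03 and 9.86 in untreated wild type. Msmo1, a methylsterol oxidase, had 10.88, 11.20 and 11.03 in treated Irf3-deficient arrays, 11.33 and 11.17 in treated wild type, against 10.45 and 10.47 in untreated wild type. Sc5d, the sterol desaturase near the end of the pathway, had 10.25, 10.42 and 10.29 in treated Irf3-deficient arrays, 10.51 and 10.53 in treated wild type, against 9.85 and 9.88 in untreated wild type. Msmo1 and Sc5d kept 73.1% and 69.0% of the induction, while Cyp51 kept 117%.

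The rest of the sterol list did not move as 1 block. Of 32 measured genes 13 rose and 5 fell in wild type, and 5 were higher and 8 lower in treated Irf3-deficient than in treated wild type. Hmgcs1, an early step of the pathway, rose by 1.18 and was lower by -0.59 without Irf3 (limma adjusted p = 0.00169), and Pmvk rose by 0.91 and was lower by -0.72 (adjusted p = 0.00652 in the same fit). The cholesterol exporter gene Abca1 fell by 1.34 in wild type and was higher by 1.10 without Irf3 (limma adjusted p = 0.00117). The count of 8 lower genes rested on single arrays, being 4 without either treated wild type array and 5 without replicate 2 of Irf3-deficient.

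Transcription factors among the members were Foxp4, Ikzf4, Nr1h3 and Nfat5. Foxp4, a forkhead factor, had 10.88, 10.67 and 10.86 in treated Irf3-deficient arrays, 10.81 and 11.26 in treated wild type, against 9.63 and 9.78 in untreated wild type. Ikzf4, of the Ikaros family, had 9.51, 9.31 and 9.59 in treated Irf3-deficient arrays, 9.68 and 9.71 in treated wild type, against 8.35 and 8.56 in untreated wild type. Both kept about the same share, 82.7% for Foxp4 and 82.0% for Ikzf4, but the treated genotypes overlapped only for Foxp4. Nr1h3, the sterol-sensing receptor LXR alpha, had 9.54, 9.05 and 9.17 in treated Irf3-deficient arrays, 9.13 and 9.39 in treated wild type, against 8.40 and 8.73 in untreated wild type. Nfat5, a factor of the response to salt and osmotic stress, had 10.80, 10.99 and 11.11 in treated Irf3-deficient arrays, 11.22 and 11.11 in treated wild type, against 10.53 and 10.43 in untreated wild type. Slc5a3, a myo-inositol transporter known as a target of Nfat5, was also a member and had 8.86, 8.85 and 8.76 in treated Irf3-deficient arrays, 9.04 and 8.92 in treated wild type, against 8.22 and 8.51 in untreated wild type; it was named after its values were seen. Of 71 listed transcription factors 16 rose and 15 fell in wild type, and 17 were higher and 8 lower without Irf3. Over all genes 10.7% were higher and 9% lower without Irf3, and the 8 lower factors are near the latter share. Of the 10 that were mite-induced by the rule's limits 4 were members and 6 lower without Irf3. These are small numbers beside the 11.9% and 85.9% over all mite-induced genes.

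Signal transduction downstream of cytokine receptors added Stat5a and Ptpn2. Stat5a, which carries signals of granulocyte-macrophage colony-stimulating factor and TSLP, had 11.63, 11.58 and 11.82 in treated Irf3-deficient arrays, 11.89 and 11.87 in treated wild type, against 11.04 and 11.14 in untreated wild type. Ptpn2, a phosphatase that limits JAK and STAT activity, had 11.24, 11.24 and 11.31 in treated Irf3-deficient arrays, 11.42 and 11.40 in treated wild type, against 10.79 and 10.70 in untreated wild type. Neither gene's treated genotypes overlapped. That their means without Irf3 stood nearer to treated than to untreated wild type is fixed by the rule for every member. In this list of 25 genes 8 rose and 1 fell in wild type and 8 were lower without Irf3, among them Stat2, which rose by 2.32 and was lower by -1.92 (limma adjusted p = 2.08e-07). Nr4a3, an orphan nuclear receptor induced by many stimuli, had 13.46, 13.45 and 13.48 in treated Irf3-deficient arrays, 13.45 and 13.66 in treated wild type, against 12.66 and 12.84 in untreated wild type. Its Irf3-deficient arrays were nearly identical and touched the lower treated wild type value. Of the 38 genes of the AP-1, EGR and MAP kinase phosphatase list, 9 rose and 12 fell in wild type.

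Dendritic cell maturation genes contributed 2 members. Of 43 measured maturation and migration genes 36 rose and 0 fell in wild type, and 27 were lower and 3 higher without Irf3. Of the 27 that were mite-induced by the rule's limits 24 were lower without Irf3, near the 85.9% over all mite-induced genes, and Samsn1 and Tmem123 were members. Samsn1, an adaptor of blood cells, had 12.54, 12.61 and 12.68 in treated Irf3-deficient arrays, 12.68 and 12.59 in treated wild type, against 11.90 and 11.99 in untreated wild type. Tmem123, a surface protein of mucin type, had 13.76, 13.85 and 13.74 in treated Irf3-deficient arrays, 13.89 and 13.81 in treated wild type, against 13.27 and 13.18 in untreated wild type. Treated genotypes overlapped for both, with genotype differences of -0.03 (95% CI -0.21 to 0.16) and -0.07 (95% CI -0.23 to 0.08). The largest genotype differences among maturation genes that rose were those of Bcl2l14 at -1.76 and Il15ra at -1.70 (limma adjusted p = 1.1e-06 and 2.31e-07).

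**Figure D2:**
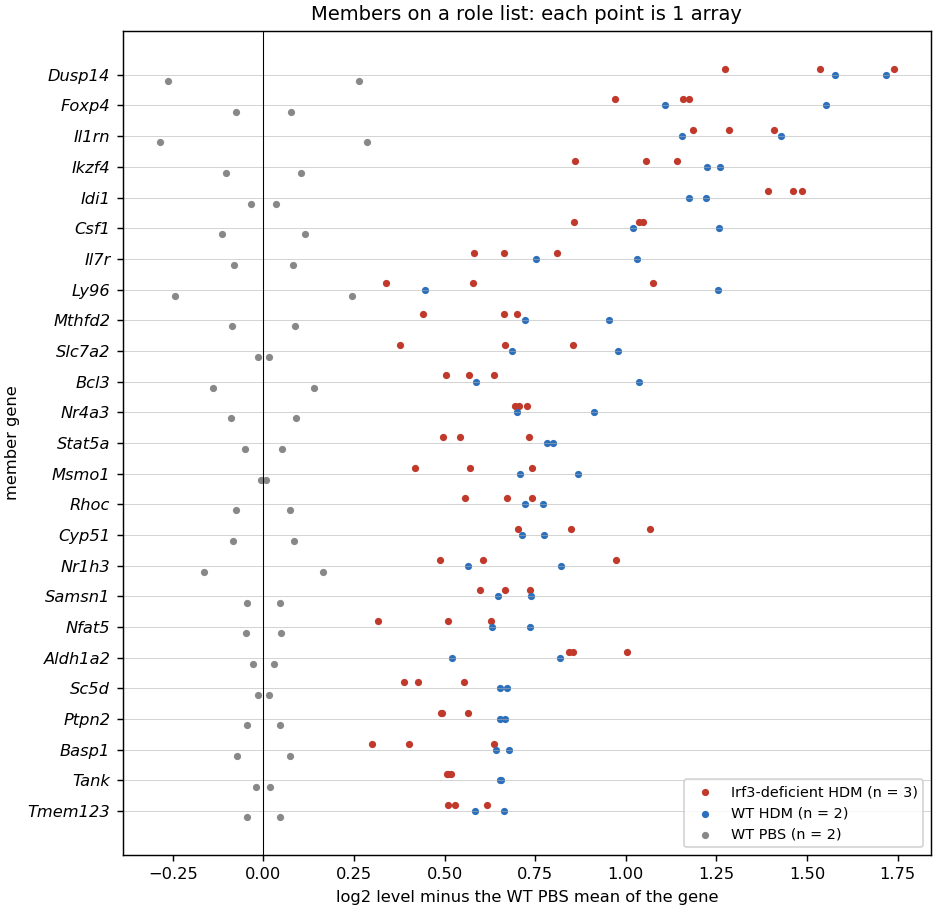
Rows are the 25 members that belong to a role list, and each point is 1 array, placed by its log2 level minus the gene's untreated wild type mean, with treated Irf3-deficient (red, n = 3) above treated wild type (blue, n = 2) and untreated wild type (grey, n = 2). Red and blue points lie to the right of the grey ones in every row, interleaved for Il1rn and Samsn1, apart for Tank and Ptpn2, and widely scattered for Ly96.

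Metabolic and cell-shape genes completed the listed members. Aldh1a2, which makes retinoic acid in dendritic cells, had 12.53, 12.52 and 12.68 in treated Irf3-deficient arrays, 12.20 and 12.49 in treated wild type, against 11.65 and 11.71 in untreated wild type. With 135% of the wild type induction it had the highest share of all members, and all 3 Irf3-deficient values were above both treated wild type values. Mthfd2, a mitochondrial folate enzyme, had 11.32, 11.09 and 11.35 in treated Irf3-deficient arrays, 11.61 and 11.37 in treated wild type, against 10.56 and 10.74 in untreated wild type. Slc7a2, a transporter of arginine and lysine, had 8.60, 8.31 and 8.79 in treated Irf3-deficient arrays, 8.91 and 8.62 in treated wild type, against 7.95 and 7.92 in untreated wild type. The list of ATF4 targets, tRNA synthetases and amino acid transporters, to which both belong, held 35 measured genes, of which 11 were higher and 4 lower without Irf3; Asns rose by 0.57 in wild type and was higher by 1.54 (limma adjusted p = 1.02e-05). Rhoc, a small GTPase of cell movement, had 11.06, 10.95 and 11.13 in treated Irf3-deficient arrays, 11.11 and 11.16 in treated wild type, against 10.32 and 10.46 in untreated wild type. Basp1, a membrane-bound regulator of the cell cortex, had 12.27, 12.37 and 12.61 in treated Irf3-deficient arrays, 12.65 and 12.61 in treated wild type, against 11.90 and 12.05 in untreated wild type. Basp1 kept 67.4% of its induction and Rhoc 87.9%.

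Several lists held no member. Of 51 measured interferon-stimulated genes 50 rose in wild type and 50 were lower without Irf3, with a median log2 genotype difference of -2.03 against 0.00 over all genes. All 49 that met the limits on level and induction were lower without Irf3 by 0.25 or more, Slfn4 by the most at -4.20 (limma adjusted p = 1.9e-09). The 17 MHC class I genes rose in 12 cases and were lower without Irf3 in 13, and each of the 11 mite-induced ones was lower, among them Tapbpl at -1.72 and Psmb10 at -1.68 (limma adjusted p = 1.62e-07 and 1.83e-07). The 13 mite-induced genes of cell survival and death and the 4 of glycolysis and hypoxia were also lower without Irf3, small numbers beside a share of 85.9% over all mite-induced genes. MHC class II held no mite-induced gene, with 0 of 14 higher and 3 lower in wild type. Of the other lists, immune enzymes had 11 of 28 higher and 7 lower in wild type, and adhesion and movement had 21 of 72 higher and 19 lower. Ifitm1, a membrane protein of an interferon-induced family that was on no list, was nonetheless a member, at 10.87, 11.17 and 11.30 in treated Irf3-deficient arrays, 11.29 and 11.01 in treated wild type, against 10.35 and 10.53 in untreated wild type; it was named after its values were seen.

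**Figure D3:**
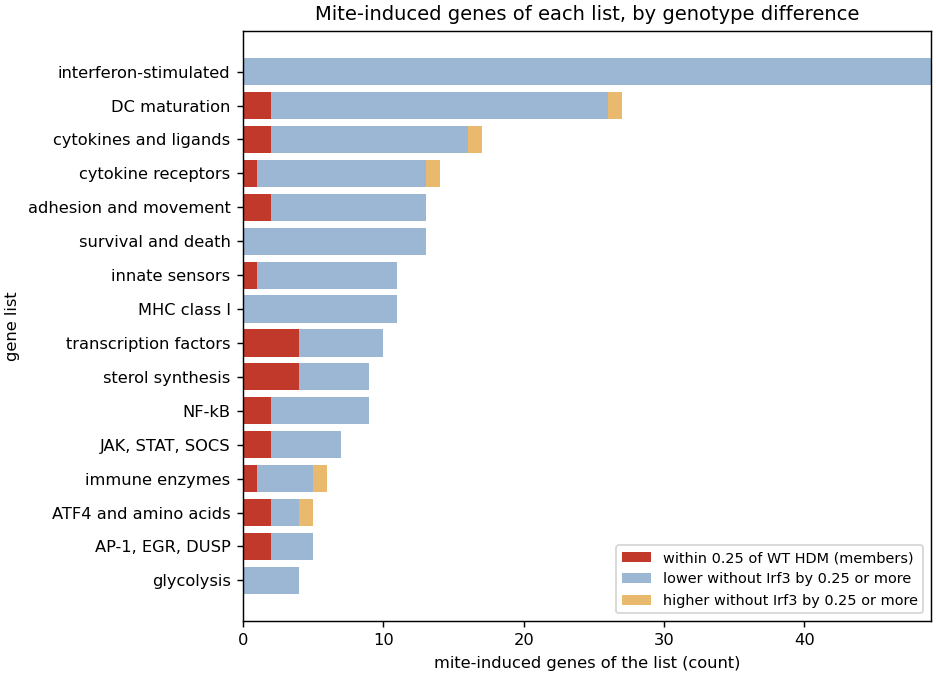
Bars count the mite-induced genes of each list, split into members (red, within 0.25 of treated wild type), genes lower without Irf3 by 0.25 or more (blue) and genes higher by 0.25 or more (amber). Members make up 4 of 9 induced sterol genes and 4 of 10 induced transcription factors, and 0 of 49 induced interferon-stimulated genes.

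Members whose share was highest or lowest show how wide the group is. Beside Aldh1a2 and Idi1, the highest shares were those of Ms4a4a at 131%, Msrb1, which repairs oxidised methionine, at 130%, and Cyria, a Rac1-binding regulator of actin, at 124%. Cyria had 13.06, 13.11 and 13.12 in treated Irf3-deficient arrays, 13.02 and 12.88 in treated wild type, against 12.34 and 12.34 in untreated wild type, so all its Irf3-deficient values were the higher ones. The lowest shares were those of Prr14 at 62.2%, the polysialic acid transferase St8sia4 at 63.2%, the chromatin remodelling subunit Ino80d at 64.0%, the noncoding 0610040B10Rik at 67.1% and Basp1. St8sia4 had 11.43, 11.70 and 11.74 in treated Irf3-deficient arrays, 11.93 and 11.80 in treated wild type, against 11.31 and 11.12 in untreated wild type. Its Irf3-deficient values fell in the gap between the other groups. The genotype difference was -0.238, inside the limit of 0.25, and its confidence interval in the limma fit ran from -0.484 to 0.008. The fit thus did not separate the treated genotypes, and whether the level without Irf3 is intermediate cannot be decided. St8sia4 met the rule in 2 of the sets that leave out a single array, the fewest of any member. Prkx, a protein kinase, had 12.90, 12.71 and 12.69 in treated Irf3-deficient arrays, 12.82 and 12.95 in treated wild type, against 12.26 and 12.30 in untreated wild type. Pvr, an adhesion molecule and ligand of lymphocyte receptors, had 12.45, 12.70 and 12.79 in treated Irf3-deficient arrays, 12.64 and 12.77 in treated wild type, against 11.97 and 12.23 in untreated wild type.

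**Figure D4:**
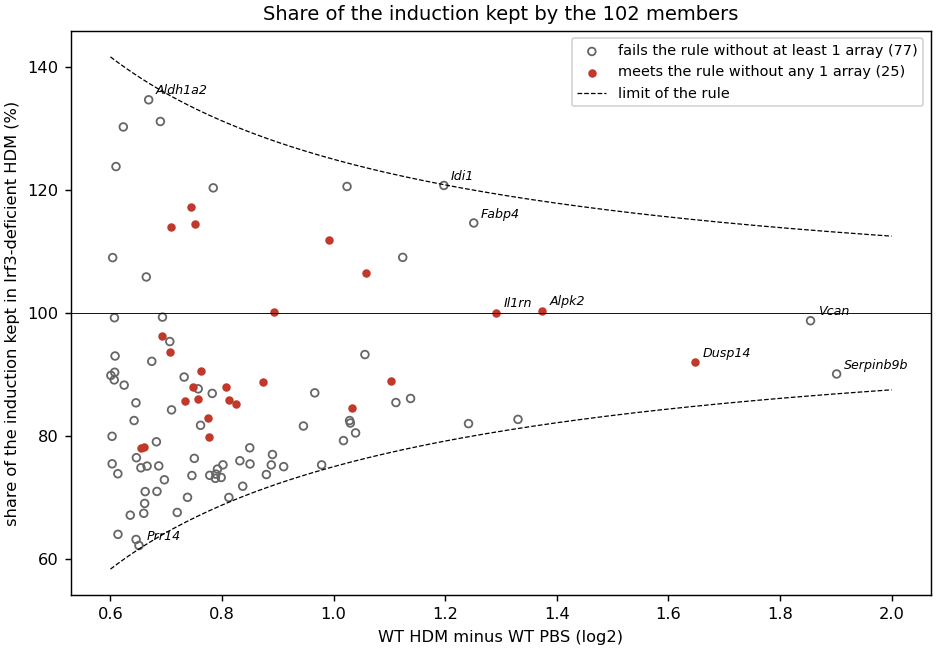
Each point is 1 of the 102 members, with treated minus untreated wild type (log2) on the x axis and the percentage of that difference present in treated Irf3-deficient cells on the y axis; dashed curves are the limit of 0.25. Filled points are the 25 members that met the rule after leaving out any 1 array, and most of the others lie near a limit; the curves narrow to the right because a fixed limit allows a smaller percentage of a larger induction.

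A few members are on marker lists of other cell types or belong to families known from them. Fabp4, a fatty acid carrier, had 9.50, 9.76 and 10.20 in treated Irf3-deficient arrays, 9.48 and 9.79 in treated wild type, against 8.67 and 8.10 in untreated wild type. It is on the list of 14 alveolar macrophage markers, whose summed linear level ranged from 19960 to 22576 in treated Irf3-deficient arrays, from 20940 to 21263 in treated wild type and from 16348 to 17206 in untreated wild type, with 3 markers higher and 4 lower in wild type after the extract. That sum includes Fabp4 itself, and the mean log2 level of the list was 9.58 in treated Irf3-deficient, 9.38 in treated wild type and 9.39 in untreated wild type. Neutrophil markers, of which 10 of 18 lay below the floor, summed to between 8637 and 9163 in treated Irf3-deficient arrays, between 7235 and 7557 in treated wild type and between 6568 and 7325 in untreated wild type. Klra17 and Klri2, receptor genes of a family best known from natural killer cells, were members, and the 19 T and NK cell markers, 11 of them below the floor, summed to between 4974 and 5250 in treated Irf3-deficient arrays, 7566 and 8355 in treated wild type, against 5898 and 7777 in untreated wild type. The part of these cells in the members' levels was not tested.

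Within the Irf3-deficient group, the members with the widest spread were A530064D06Rik, Zfp951, Klra17, Slamf1 and Ly96. Slamf1, a costimulatory receptor, had 8.22, 8.62 and 9.04 in treated Irf3-deficient arrays, 8.35 and 8.48 in treated wild type, against 7.40 and 7.39 in untreated wild type. Zfp951, of a large zinc finger family, had 8.74, 7.89 and 7.96 in treated Irf3-deficient arrays, 8.12 and 8.38 in treated wild type, against 7.51 and 7.65 in untreated wild type. Of the 102 members, 49 were highest in replicate 1 of that group, 11 in replicate 2 and 42 in replicate 3. The same counts over all genes were not made, so these are not a trait of the members. Over all genes the median difference from the untreated wild type mean was 0.023, 0.006 and 0.068 in these replicates, again lowest in replicate 2. Bag3, Zfand2a and Cacybp, genes of protein folding and turnover named after their values were seen, shared an array pattern. Bag3 had 10.49, 10.00 and 9.99 in treated Irf3-deficient arrays, 10.15 and 10.58 in treated wild type, against 9.49 and 9.67 in untreated wild type, so that replicate 1 without Irf3 and replicate 2 of wild type stood out. Zfand2a repeated this with 12.47, 12.03 and 12.13 in treated Irf3-deficient arrays, 12.15 and 12.65 in treated wild type, against 11.73 and 11.75 in untreated wild type. Bag3, Zfand2a and Cacybp each met the rule in 4 of the 7 sets that leave out 1 array. Foxp4, Ly96, Mthfd2, Bcl3 and Aldh1a2 did the same, and 84 of the 102 members met it in at least 5.

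Membership depended on single arrays. Leaving out 1 array at a time left between 87 and 119 genes that met the rule. Without either treated wild type array, 64 of the 102 members still met it, and without replicate 1 of Irf3-deficient 76 did. The 25 members that met it in all 7 such sets were Dusp14, Alpk2, Il1rn, Zfp617, Bex6, Nudt9, Gm9733, Pgap2, Fah, Rras2, Psmd7, Nr4a3, Cox18, Iscu, Osgin2, Acvr2a, Pdzd11, Rhoc, Cyp51, Cdk17, Nup88, Rnf24, Samsn1, Ptpn2 and Tank. Iscu, a scaffold of iron-sulphur cluster assembly, had 12.51, 12.46 and 12.51 in treated Irf3-deficient arrays, 12.74 and 12.51 in treated wild type, against 11.71 and 11.99 in untreated wild type, and a second probeset gave a wild type difference of 0.86 and a genotype difference of -0.12. Nup88, a nuclear pore protein, had 11.47, 11.50 and 11.55 in treated Irf3-deficient arrays, 11.45 and 11.36 in treated wild type, against 10.65 and 10.74 in untreated wild type. Pgap2, which remodels lipid anchors of surface proteins, had 12.11, 11.97 and 12.05 in treated Irf3-deficient arrays, 11.99 and 12.09 in treated wild type, against 11.02 and 11.28 in untreated wild type. For Nup88 all 3 Irf3-deficient values were above both treated wild type values, and for Pgap2 they lay around them. Whether probesets of such genes also match near-identical copies elsewhere in the genome was not analysed here.

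Of the 7 members with several probesets, Etfbkmt was the one whose other probeset disagreed by over 0.5, with a wild type difference of 0.11 at an overall mean of 5.71, below the floor. The kept probeset of Etfbkmt gave 8.58, 8.61 and 8.48 in treated Irf3-deficient arrays, 8.87 and 8.44 in treated wild type, against 7.87 and 7.88 in untreated wild type. The other probeset of Ptpn2 had a wild type difference of 0.29, under the limit on induction, against 0.66 for the kept one. For Atxn7l1 the other probeset had a genotype difference of -0.38, outside the limit, against -0.18 for the kept one. The 3 probesets of Smarce1, a chromatin remodelling subunit, gave wild type differences between 0.65 and 0.74 and genotype differences between -0.23 and -0.16. At the floor, the last members inside were Cfap126, Astl and Nt5c1a at overall means of 7.58, 7.65 and 7.79, and the first genes outside were Yes1 and Zfp119b at 7.45 and 6.56, the only ones there. At the limit on induction, Dnm1l, Prkx and Hectd2 lay inside at 0.60 each, and Mir674, Suox and 4930426L09Rik lay outside at 0.60, 0.60 and 0.59. At the limit on the genotype difference, Idi1, Prr14 and Bcl3 lay inside at absolute values of 0.25, 0.25 and 0.24, and Nfkbib, Zfp961 and Plk2 outside at 0.26 each. At these last limits the genes inside and outside differed by less than the members' median SD among Irf3-deficient arrays, 0.131.

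The remaining members, all with wild type differences between 0.60 and 1.10, had varied functions and are grouped here by general knowledge of their products, after their values were seen. Signalling and trafficking genes were Cblb, a ubiquitin ligase that restrains receptor signalling, Acvr2a, an activin receptor, Edn1, the gene of endothelin, Rapgef2, Rras2, Nck1, Fnbp1l, Cdk17, Rnf24, Phlda2, Hectd2, Gga3, Tvp23a, Kirrel, Oaf, Cacnb1, Pdzd11, Tmem63b, Atp11a, Tmem19, Bex6 and Tgm2, the gene of tissue transglutaminase. Mitochondrial and metabolic genes were Iscu, Cox18, Mrps27, Nudt9, Dnm1l, Etfbkmt, Fah, Nmrk1, Nt5c1a, Papss2, Fabp7, Pgap2 and Msrb1. Genes of transcription, chromatin and RNA were Smarce1, Ino80d, Taf7, Gtf2f1, Hic1, Prdm8, Thap2, Mex3b, Atxn7l1, Prr14, Zfp617 and Zfp951, with Psmd7, Osgin2, Trp53inp2, Hemk1, Cfap126 and Astl left over. The 4 predicted or unnamed genes were Gm9733, A530064D06Rik, E130311K13Rik and 0610040B10Rik, of which the last is the only member that does not code for a protein. By the RefSeq table the members lay on 19 chromosomes, with at most 11 on any one.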

How the data were processed

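Expression was measured in 7 pools of lung cDC2s by microarray (Affymetrix Mouse Gene 1.0 ST), as the labels give it. The values deposited by the authors are log2 expression values of 35556 probesets. The tools were R 3.2.1, oligo and RMA per the submitters' processing notes, where no step or sequence of use is stated. RMA as usually run equalises the array distributions, so a change shared by most genes could not be seen. Detection calls, scan dates and batches are not given in the sources used here, and the number of arrays limits the precision.

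Probesets with 1 symbol in the platform annotation (21789, with 1621 of several symbols and 12146 not listed) were named through Entrez identifiers in a RefSeq table (GRCm38.p6), which matched 19856 of 19938 genes. The probeset with the highest mean was kept for each gene. The fit used limma 3.58.1 (R 4.3.3) on all 7 arrays with a mean for each group and eBayes with an intensity trend, giving 4 residual and 8.34 prior degrees of freedom. Two-sided p-values were Benjamini-Hochberg adjusted across the 19938 genes and called at 0.05, and "rose", "fell", "higher" and "lower" in counts of listed genes refer to it. Every adjusted p-value comes from this fit, which was tested on simulated data. The labels do not say whether the pools of a group came from separate experiments, so p-values measure the spread between these arrays.

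The members, the 17 role lists, the 10 marker lists and the comparisons were chosen with earlier results of these data known. Named with values were Irf3, the 12 largest inductions, up to 8 members per role list, the extremes of share kept, level and spread, genes at the thresholds, members with disagreeing probesets, and up to 3 genes per list that rose and differed most between genotypes. Others are said to be named after their values were seen. Both comparisons share the treated wild type arrays. The alternatives were other scalings, probeset rules, thresholds and fits, and leaving out each array.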

Additional observations from a re-analysis of the deposited data

How the results depend on the processing

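The 102 members became 21 with a wild type difference of at least 1.0 and 49 with an absolute genotype difference under 0.15, as stricter limits must give. Without 1 array at a time the number lay between 87 and 119, sharing between 64 and 95 genes with the 102. Under the other 7 settings (2 scalings, 2 probeset rules, 2 floors, and a share kept within 25 percentage points of the full induction in place of the limit on the difference) it lay between 85 and 104. Genes called numbered 3505 for the wild type response and 3932 for the genotype difference. They ranged from 2333 to 3724 and from 2562 to 3906 without 1 array, the lowest counts being those without replicate 2 of treated wild type. In that set 1086 genes were lower in the wild type response against 1841, and 1276 higher in the genotype difference against 2138; leaving out untreated wild type replicate 1 gave 1178 in the first of these. With the sample number as a replicate block 3118 and 3249 genes were called. Deviations from the group mean of same-numbered arrays correlated over genes at -0.23 between treated and untreated wild type (1 value, with 2 arrays each). The correlations were 0.18 and -0.09 between Irf3-deficient and untreated wild type, and -0.03 and -0.02 between the treated genotypes. With 2 arrays in a group the deviations mirror each other, so these values cannot show whether arrays were paired in some other order. With the block the count of sterol genes lower without Irf3 was 5 against 8, and that of NF-kB genes higher without Irf3 was 1 against 2. Of the values of named members, 498 of 537 wild type differences and 517 of 537 genotype differences moved by less than the residual SD, and none of the wild type differences reached 0. The cause of these shifts was not tested.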

Other observations

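A fixed limit on the genotype difference left out several strongly induced immune genes whose share of induction kept lay within the range of the members. With a share within 25 percentage points of the full induction in place of the limit, 12 other genes would have entered; those named here were chosen after their values were seen. Acod1, which makes itaconate in activated myeloid cells, had log2 levels of 9.53, 9.36 and 9.75 in treated Irf3-deficient arrays, 9.97 and 10.14 in treated wild type, against 7.19 and 7.94 in untreated wild type, keeping 79.5% of a wild type difference of 2.49. Il12b, the shared subunit of interleukins 12 and 23, had 12.96, 12.98 and 13.18 in treated Irf3-deficient arrays, 13.38 and 13.47 in treated wild type, against 11.56 and 11.76 in untreated wild type, keeping 78.0%. The checkpoint ligand gene Cd274 kept 75.1%, the integrin gene Itgb8 79.4% and the ephrin gene Efna2 81.7% of wild type differences of 1.56, 1.97 and 1.81. For Cd274 and Il12b all Irf3-deficient values were below both treated wild type values and above both untreated ones.

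Heat shock genes that were not members mostly shared the array pattern seen in Bag3, Zfand2a and Cacybp. Of 12 such genes, listed after the members' values were seen, 12 were highest in replicate 1 of the Irf3-deficient group and 11 were also higher in replicate 2 than in replicate 1 of treated wild type. That combination was present in 18.02% of genes above the floor and in 34 of the 102 members. Hsph1, a chaperone, had 10.51, 9.56 and 10.00 in treated Irf3-deficient arrays, 10.60 and 11.15 in treated wild type, against 9.80 and 10.05 in untreated wild type. Hspa1a had 12.05, 11.41 and 11.24 in treated Irf3-deficient arrays, 11.79 and 11.98 in treated wild type, against 11.03 and 11.27 in untreated wild type. The source of this pattern was not tested.

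Among probesets with several gene symbols, which were not used, 4 met the same limits.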
